A study of Drosophila melanogaster with 4 samples.

Results

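The genes described here carry out the transcriptional response of Drosophila melanogaster to the steroid hormone ecdysone. They were named one by one, with no threshold on counts or changes, as EcR, usp, tai, Eip74EF, Eip75B, br, ftz-f1, Hr3, Hr39 and Cyp18a1. Of these 10 genes, 9 were matched to a gene identifier among the 17559 that were counted. The identifier that the annotation gives for br was not among those matched, and br is not analysed here. All 9 matched genes passed the filter on low counts, as did 10854 genes in all.

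Poly(A) RNA from testes, dissected together with the seminal vesicle, was sequenced from bam mutant males (2 libraries) and from Caf40 knockdown males (2 libraries), each library made from 150 pairs of testes. Bam switches spermatogonia from proliferation to differentiation, while Caf40 is the subunit through which Bam contacts the deadenylase complex CCR4-NOT. In both genotypes small germ cells accumulate in place of spermatocytes. The bam mutant males carried the alleles bam1 and bam86 (also written bamΔ86), where the latter deletes most of the coding sequence, and per the methods also CyO. Rearing was at 22 °C until the mid to late pupa, followed by 30 min at 37 °C, although no heat shock construct was present, then by 25 °C until dissection 48 h later. The Caf40 knockdown males carried a hairpin against Caf40 (stock BL67987) under nosGAL4, a driver that is active in the stem cells and early spermatogonia of the germline, and the driver strains for knockdowns also carried UAS-Dicer2. These males spent 3 days at 25 °C and then stayed at 29 °C, and were dissected 0 to 2 days after eclosion. The methods give this age without setting the 2 genotypes apart. The driver is not meant to act in the somatic cells of the testis. Genotype, strain, rearing temperature, heat shock and possibly the developmental age at dissection cannot be told apart in this design. Nothing in the labels says whether the libraries of a genotype came from separate cultures, so p-values measure the spread between these libraries.

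Ecdysone is converted in target tissues to an active hydroxylated form, which binds a heterodimer of the nuclear receptors EcR and Ultraspiracle (usp). The bound receptor recruits coactivators such as Taiman (tai) and turns on a small set of early genes, among them Eip74EF and Eip75B, whose products are transcription factors that pass the signal on to later genes. Pulses of the hormone drive molting and metamorphosis, and in the adult testis ecdysone receptor activity in the somatic cyst stem cells is known to help maintain the stem cells.

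Gene counts came to between 95125694 and 118209171 per bam mutant library and to between 26984758 and 30411385 per Caf40 knockdown library. Levels are given in CPM (the count as a share of the library's total, scaled so that totals are equal), with library totals adjusted by TMM, which sets aside the genes of most extreme ratio. A level of 3 counts, the most that a count of 0 allows at 95% confidence, corresponds to 0.0265 to 0.103 CPM. Such limits cover counting error only. Caf40 itself, named Rcd-1 in the annotation, averaged 206 ± 2.54 CPM in bam mutant and 14.8 ± 1.91 CPM in knockdown libraries (SD, n = 2 each), and bam averaged 20.7 ± 0.0668 and 258 ± 12.7 CPM, so the libraries matched their labels. Germline markers were abundant in all 4 libraries (summed level of 12 genes 2572 to 2628 CPM in the bam mutant and 3777 to 4234 CPM in the knockdown). The defining cyst cell markers tj, zfh1 and eya were also detected in all 4, and the hub marker upd1 was below 1 CPM in each. Markers of 2 other tissues separated the knockdown replicates. Knockdown replicate 2 held more spermatid transcripts (summed level 139 CPM, against 4.35 CPM in replicate 1 and 9.66 to 11.3 CPM in bam mutant libraries). Knockdown replicate 1 held more accessory gland transcripts (371 CPM, against 42.8 CPM in replicate 2 and 2.49 to 9.42 CPM in bam mutant libraries).

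The comparison asked how the level of each ecdysone gene in the knockdown compared with that in the bam mutant. The hormone receptor EcR and the early genes Eip75B and Eip74EF were lower in the Caf40 knockdown, each at 53.1% to 56.8% of the bam mutant level. The receptor partner usp was slightly lower, at 85.2%. The related nuclear receptors ftz-f1 and Hr39 were slightly higher, at 1.30-fold and 1.18-fold, and turned lower when the libraries were scaled to germline markers instead of TMM. The coactivator tai, the receptor Hr3 and the hormone-inactivating enzyme Cyp18a1 did not pass the test. Thus 6 of the 9 genes were called, 2 higher and 4 lower, by edgeR's quasi-likelihood test at a Benjamini-Hochberg adjusted p below 0.05 over all 10854 genes tested. Of all genes tested, 63.7% were called by the same rule, 30.7% higher and 33.0% lower, so the share called among the ecdysone genes was close to the background. The libraries of the genotypes did not overlap for any of the 9 genes, and this was so for 83.4% of all genes tested. The median log2 fold change of the 9 genes was -0.38, against 0.03 over all genes tested.

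**Figure D1:**
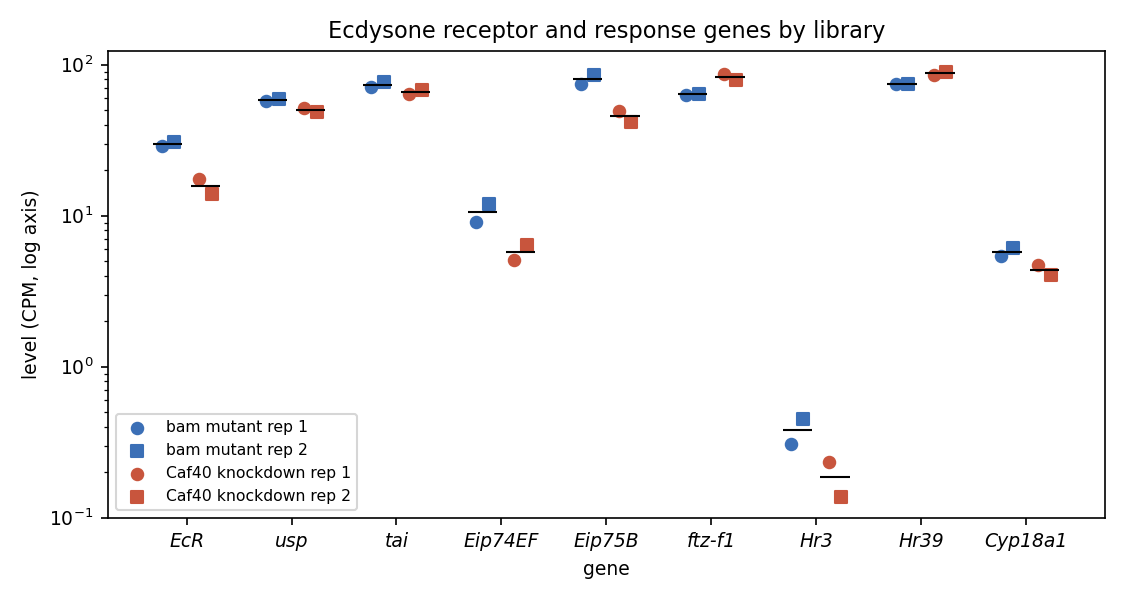
Level in CPM (log axis) of the 9 ecdysone receptor and response genes in each library, with 2 bam mutant libraries in blue and 2 Caf40 knockdown libraries in red; bars mark the mean of each genotype. EcR falls from 28.7 and 30.7 CPM to 17.5 and 13.99 CPM, Eip75B and Eip74EF fall likewise, and ftz-f1 and Hr39 sit higher in the knockdown under this TMM scaling, though not when scaled to the germline markers (-0.28 and -0.41).

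EcR (FBgn0000546) encodes the hormone-binding receptor subunit and lies on the minus strand of chromosome 2R from 6087873 to 6169087 (BDGP6). The bam mutant libraries gave 28.7 and 30.7 CPM, and the knockdown libraries 17.5 and 13.99 CPM. Both knockdown libraries were below both bam mutant libraries by more than the replicates differed from each other. From means of 29.7 ± 1.37 and 15.8 ± 2.52 CPM (SD, n = 2 each), the log2 fold change was -0.91 (standard error 0.12, 95% interval -1.21 to -0.61, adjusted p 0.00161). The annotation gives 6 transcripts of EcR, and the counts were summed over the gene and do not separate them.

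usp (FBgn0003964) encodes Ultraspiracle, the fly ortholog of the vertebrate retinoid X receptor and the obligate partner of EcR. The gene is compact (chromosome X, 2038798 to 2042311, minus strand). It stood at 57.4 and 59.5 CPM in bam mutant libraries, compared with 51.2 and 48.4 CPM in the knockdown. The groups were separate, but only by a small margin. On the log2 scale the change was -0.23, with an interval from -0.39 to -0.07 (adjusted p 0.0223), and the call was lost under upper quartile scaling (-0.085) and with library size alone (-0.14). In the annotation 8.72% of the exonic bases of usp are shared with Actn on the same strand, and reads confined to those bases could not be assigned to either gene. Actn was at 132 ± 2.39 CPM and 127 ± 3.25 CPM (SD, n = 2 each) and was not called.

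Taiman (tai, FBgn0041092, chromosome 2L, 9166778 to 9250211, plus strand) is the fly member of the steroid receptor coactivator family and binds the hormone-loaded receptor. Its level was 70.7 and 76.5 CPM in the bam mutant and 63.6 and 67.5 CPM in the knockdown. The gap between the groups was smaller than the distance between replicates. Its log2 fold change of -0.17 had an interval from -0.33 to -0.00237, and the adjusted p of 0.0706 did not pass the threshold in edgeR's test. Without Caf40 knockdown replicate 1 it was -0.17 (adjusted p 0.0409) and without replicate 2 -0.21 (adjusted p 0.0219), so that a left-out knockdown library brought tai past the threshold in both cases.

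The early genes moved with EcR. Eip75B (FBgn0000568, chromosome 3L, 17950953 to 18064696, minus strand) encodes E75, a haem-binding nuclear receptor that is induced directly by the hormone. It stood at 74.5 and 86.0 CPM in bam mutant libraries and fell to 49.7 and 41.6 CPM in the knockdown. The lower bam mutant library stood well above the higher knockdown library. This gave a log2 fold change of -0.82 (standard error 0.11, interval -1.10 to -0.53, adjusted p 0.00197).

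Eip74EF (FBgn0000567, chromosome 3L, 17558672 to 17619325, minus strand) encodes E74, an ETS-domain transcription factor and another direct target of the receptor. It was expressed at a lower level, 9.11 and 11.9 CPM in the bam mutant and 5.12 and 6.37 CPM in the knockdown, from 154 and 185 counts in the latter. The groups were separate, while the bam mutant replicates were farther apart than for EcR. Eip74EF thus had a log2 fold change of -0.87 (standard error 0.21, interval -1.40 to -0.35, adjusted p 0.0145). Without bam mutant replicate 2, the higher of the pair, it was -0.75 and no longer called (adjusted p 0.103).

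Eip74EF also differed from the other genes in the reads on its opposite strand. These made up 25.4% of its stranded counts in bam mutant replicate 1 (exact Clopper-Pearson 95% interval 23.2% to 27.8%) and 17.7% in replicate 2 (15.7% to 19.8%). In the knockdown they made up 57.8% (52.6% to 62.9%) and 40.1% (34.6% to 45.8%). As levels the opposite strand stood at 3.11 and 2.57 CPM in bam mutant libraries, compared with 7.01 and 4.27 CPM in the knockdown, higher in both knockdown libraries, whereas the sense strand was lower. Over all genes only 2.47% to 2.54% of the stranded counts were on the opposite strand. Among the other 8 genes this share was at most 0.642% in any library, apart from Hr3, whose 4 to 42 sense counts per library leave it poorly defined. The unstranded count of Eip74EF exceeded its sense count by no more than 7 in any library, so nearly all of its opposite-strand reads were not credited to Eip74EF when strand was ignored. The annotation used here places no other gene over Eip74EF, and that of the authors' counting is not given in the sources used here. The sense counts reported above do not contain these reads.

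Of the nuclear receptors that act later in the cascade, ftz-f1 and Hr39 were called higher under TMM scaling, and Hr3 was not called. ftz-f1 (FBgn0001078, chromosome 3L, 18750607 to 18801309, minus strand) encodes a competence factor that makes tissues ready for the next hormone pulse. It stood at 63.3 and 64.0 CPM in bam mutant libraries, compared with 86.4 and 78.5 CPM in the knockdown. Both knockdown libraries were above both bam mutant libraries. The increase was 0.37 on the log2 scale (standard error 0.06, interval 0.21 to 0.53, adjusted p 0.00429), but with the libraries scaled to the germline markers it turned to -0.28. In the annotation 29.4% of its exonic bases are shared with a long noncoding RNA on the same strand, lncRNA:CR45939, which itself had at most 4 counts in any library.

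Hr39 (FBgn0261239, chromosome 2L, 21237250 to 21259675, plus strand) encodes a nuclear receptor of the same subfamily as Ftz-f1 and is known for its role in female reproductive glands. It stood at 74.2 and 74.9 CPM in bam mutant libraries, compared with 85.8 and 89.4 CPM in the knockdown, and the gap between the groups was wider than the spread within either. The log2 fold change was 0.23 with an interval from 0.10 to 0.36 (adjusted p 0.0111). This call depended on the libraries and the scaling. Without bam mutant replicate 1 the value was 0.14 (adjusted p 0.238), without bam mutant replicate 2 it was 0.15 (adjusted p 0.216), and with scaling to the germline markers it turned to -0.41.

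Hr3 (FBgn0000448, chromosome 2R, 10203995 to 10237348, minus strand) encodes an orphan receptor that activates ftz-f1 in the prepupa and that E75 binds and inhibits. It was barely detected, with 35 and 42 counts in the bam mutant but 7 and 4 in the knockdown, or 0.309 and 0.451 against 0.233 and 0.138 CPM. Its interval ran from -2.45 to 0.40 around a log2 fold change of -1.02, so a difference was not detectable at this depth (adjusted p 0.163). The annotation shares 61.8% of the exonic bases of Hr3 with CG12912 on the same strand, and CG12912 had 0 counts in all 4 libraries. Reads confined to the shared bases would be left unassigned, and the level of Hr3 may thus be understated.

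Cyp18a1 (FBgn0010383, chromosome X, 18688538 to 18693042, minus strand) encodes the cytochrome P450 that inactivates ecdysteroids and is itself induced by the hormone. It stood at 5.38 and 6.06 CPM in bam mutant libraries, compared with 4.72 and 4.07 CPM in the knockdown. The knockdown libraries were lower, by about as much as the replicates differed. The log2 fold change was -0.38 with an interval from -0.86 to 0.10 (adjusted p 0.134), and without Caf40 knockdown replicate 1 it was -0.54 and past the threshold (adjusted p 0.0212).

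**Figure D2:**
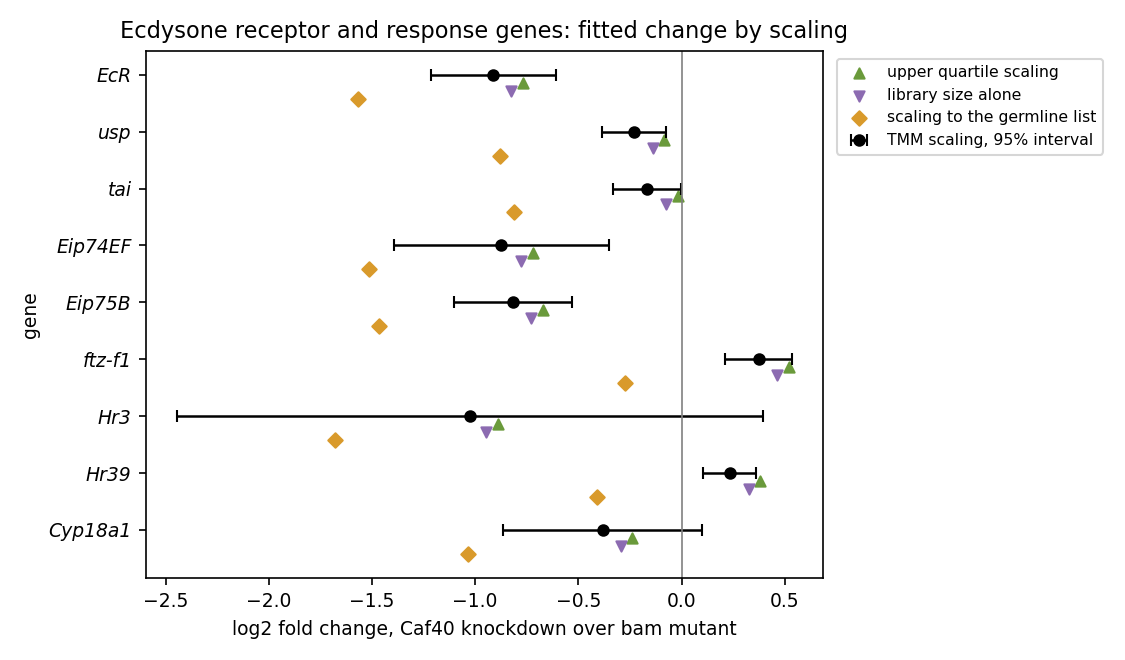
Log2 fold change of Caf40 knockdown over bam mutant for each of the 9 genes: black points with 95% intervals come from the TMM-scaled edgeR fit, and coloured points from the same fit under 3 other scalings. EcR, Eip74EF and Eip75B stay below 0 under each, while ftz-f1 (0.37) and Hr39 (0.23) turn to -0.28 and -0.41 when scaled to the germline markers.

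The scaling set the direction of some of these results. Upper quartile scaling moved the median of all genes by 0.15 and scaling to the 12 germline markers moved it by -0.65 on the log2 scale. Scaled to the germline markers, all 9 genes were called lower and none higher, against 4 lower and 2 higher under TMM, while over all genes 7009 were lower and 762 higher. EcR ranged from -1.57 to -0.77 and Eip75B from -1.47 to -0.67 over the alternatives that kept all libraries, and both were called under each of the 14 alternatives.

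Levels of different genes can be compared only per length. Per kilobase of annotated exon, usp was the most abundant of the 9 in the bam mutant, at 19.2 ± 0.480 CPM per kb, followed by Hr39 at 14.96 ± 0.0918 and ftz-f1 at 7.42 ± 0.0569 (SD, n = 2 each). tai (6.18 ± 0.339) and Eip75B (5.97 ± 0.605) came next and overlapped each other. EcR was at 2.99 ± 0.138, Cyp18a1 at 1.88 ± 0.158, Eip74EF at 1.13 ± 0.214 and Hr3 at 0.0363 ± 0.00959 CPM per kb. In the knockdown Hr39 (17.6 ± 0.505) stood above usp (16.4 ± 0.654), and EcR (1.59 ± 0.253) overlapped Cyp18a1 (1.44 ± 0.152). The order in the middle depended on the length used. Divided by the mean length of the annotated transcripts, Eip75B was at 14.8 CPM per kb in the bam mutant, above ftz-f1 at 11.9 and tai at 8.06.

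Ratios between genes within a library do not depend on the scaling of the libraries. Per kilobase, the ratio of EcR to its partner usp was 0.153 and 0.158 for bam mutant replicates and 0.105 and 0.0883 for knockdown replicates. EcR transcripts were thus fewer than usp transcripts in every library, and the ratio was 1.61-fold lower in the knockdown. The ratio of Eip75B to Hr39 was 0.372 and 0.426 in the bam mutant against 0.214 and 0.172 in the knockdown, a 2.07-fold lower ratio. The ratio of Eip75B to EcR differed less, at 1.92 and 2.07 in the bam mutant against 2.09 and 2.19 in the knockdown. That of Hr39 to ftz-f1 was 2.02 and 2.01 against 1.71 and 1.96. The genotypes did not overlap in these ratios either. The 4 ratios were picked with the values of the genes known. In a design of 2 against 2 the lowest p of the exact permutation test, two-sided, is 0.333, and each ratio gave that value.

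**Figure D3:**
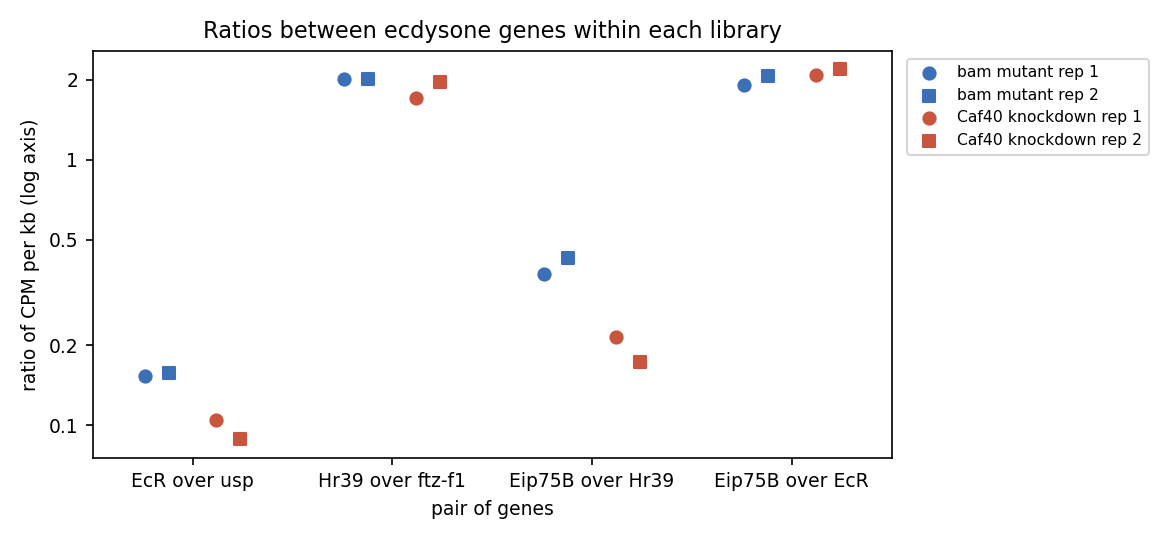
Ratio of CPM per kb between pairs of ecdysone genes in each library (log axis), with bam mutant in blue and Caf40 knockdown in red. EcR over usp falls from 0.153 and 0.158 to 0.105 and 0.0883, and Eip75B over Hr39 also falls. Eip75B over EcR differs less (1.92 and 2.07 against 2.09 and 2.19).

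Most of the genes also have features in common that the choice did not use. How frequent these features are among all genes was not measured. Of the 9 genes, 7 lie in spans of 22.4 to 114 kb with 4 to 7 annotated transcripts, and the compact exceptions are usp (3.51 kb) and Cyp18a1 (4.50 kb), each with 2 transcripts. Eip74EF, Eip75B and ftz-f1 lie on the same strand of chromosome 3L, and the first and the second fell while the third rose under TMM scaling and fell under scaling to the germline markers.

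Other genes of the pathway were grouped by role. Like br, the synthesis gene nvd and the turnover gene Wall could not be matched to a counted gene and are not analysed. The same holds for the germline marker vas, the muscle marker wupA and the fat body marker FASN1. The share called among tested genes ran from 50% for other nuclear receptors to 84.2% for other response genes. Of all genes tested, 63.7% were called, 30.7% higher and 33.0% lower. Of the 5 ecdysone lists, transport and turnover had the median farthest from 0, with 3 of 4 tested genes called lower and none higher at a median log2 fold change of -1.56. Oatp74D, also called EcI, the importer that carries ecdysteroids into target cells, stood at 42.4 and 46.5 CPM in bam mutant libraries, compared with 8.04 and 7.24 CPM in the knockdown, 5.82-fold lower (log2 fold change -2.54, standard error 0.09). Atet, an ABC transporter that loads ecdysone into secretory vesicles in the larval prothoracic gland, was 3.87-fold lower, and E23, an ecdysone-inducible ABC transporter, 2.26-fold lower. Each of the 3 calls held under every alternative run.

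Genes for ecdysteroid synthesis were mostly scarce. Of 9 tested, 5 were called lower and 1 higher, with a median of -0.79, and a further 2 were too low to test. shd, the enzyme that converts ecdysone to its active form in peripheral tissues, stood at 4.61 and 5.05 CPM in bam mutant libraries, compared with 0.698 and 0.827 CPM in the knockdown, 6.32-fold lower (log2 fold change -2.66, adjusted p 5.37e-04). The cytochrome P450 genes sad (-1.70) and dib (-1.89) and the dehydrogenase gene sro (-2.35) were lower from levels below 2 CPM, but with unstranded counts none of the 3 was called and sro turned to 0.62. Calls for sad and sro were also lost when either bam mutant library was left out. That for sro was lost with DESeq2 too (adjusted p 0.0555), and that for dib with DESeq2 (0.216), with every gene of at least 1 count kept (0.057), with the replicate number as a block (0.0785) and without Caf40 knockdown replicate 1 (0.0774). Start1, which encodes a sterol transport protein and was singled out after its values were seen, was at 60.2 ± 0.569 and 34.8 ± 1.05 CPM (SD, n = 2 each). The zinc finger gene mld, a transcriptional regulator needed for hormone synthesis in the larva, was higher, at 178 ± 9.74 and 273 ± 12.9 CPM (SD, n = 2 each, log2 fold change 0.62), but at -0.026 when scaled to the germline markers. The median of the synthesis genes tested was -0.47 without bam mutant replicate 1 and -0.92 without replicate 2, with 8 genes tested in each case.

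Co-regulators of the receptor other than tai were mostly higher under TMM scaling. Of 14 co-regulators, 11 were called higher and none lower, with a median log2 fold change of 0.50. Lpt and rig stood out, at 1.26 each. Lpt belongs with trr and Utx to a histone methyltransferase complex that coactivates EcR, and rig encodes a cofactor that binds the receptor. Lpt was at 41.7 ± 1.203 and 100.2 ± 0.896 CPM (SD, n = 2 each), 2.40-fold higher. The remodeller Iswi (0.92) and the chaperone gene Hsp83 (0.64) followed, the latter at -0.012 when scaled to the germline markers. The chaperone assists DNA binding by the receptor. The 12 germline markers were all called higher as well, with a median of 0.60. Scaling to these markers moved the median of all genes by -0.65 and single genes by about as much. Under it the co-regulators split into 3 higher and 6 lower with a median of -0.15, which follows from that shift. Whether the shift in germline markers took part in that of the co-regulators was not tested.

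Other genes that respond to the hormone were mostly lower. Of 19 tested, 12 were called lower and 4 higher, with a median of -0.85, and under scaling to the germline markers 15 were lower and none higher. The largest decreases were in Ldh, the lactate dehydrogenase gene first described as an ecdysone-induced transcript (from 454 ± 48.2 to 63.3 ± 5.28 CPM, SD, n = 2 each, 7.17-fold lower), in the cell death activators hid (4.06-fold lower) and rpr (3.28-fold lower), and in Eip63F-1, a calcium-binding protein gene (2.92-fold lower). Eip93F, a transcription factor gene of late metamorphosis that was singled out after its values were seen, stood at 65.0 and 71.8 CPM in bam mutant libraries and 31.9 and 26.8 CPM in the knockdown (log2 fold change -1.22). The 4 higher genes were ImpE1 (1.43, from levels below 1 CPM), Hr4 (0.77), the caspase gene Dronc (0.43) and the zinc finger gene crol (0.25). With scaling to the germline markers Dronc and crol turned to -0.22 and -0.40, and Hr4 (0.12) and ImpE1 (0.78) were not called. ImpE1 (adjusted p 0.0434 by edgeR) kept its call in only 6 of 14 alternatives (largest adjusted p 0.433), and crol in 10 of 14. Of the 24 genes in this list, 5 were too low to test, and 1 of these had no count in any library. With 1 library left out, the log2 fold change ran from 1.08 to 1.69 for ImpE1 and from 0.53 to 0.84 for Hr4. For Dronc it ran from 0.30 to 0.50 and for crol from 0.13 to 0.24.

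The other nuclear receptors, beyond the 6 among the 9 genes, were mixed. Of 10 tested, 4 were called lower, 1 higher and 5 not, and a further 5 were too low to test, 1 of them with no count in any library. Under scaling to the germline markers 7 were lower and none higher, and under upper quartile scaling 3 were lower and 2 higher. Hnf4, a regulator of lipid and sugar metabolism, was 3.88-fold lower, svp, the fly COUP-TF, 3.00-fold lower, and the xenobiotic receptor gene Hr96 1.72-fold lower. Hr78 was at 59.8 ± 0.526 and 50.03 ± 4.97 CPM (SD, n = 2 each, log2 fold change -0.26), and its call was lost under upper quartile scaling (-0.11) and without Caf40 knockdown replicate 2 (-0.16). The call for svp was lost without bam mutant replicate 2 (adjusted p 0.0524). Hr4, which acts beside Hr3 in the prepupal cascade, was the receptor that rose under TMM scaling (from 11.7 ± 1.77 to 19.9 ± 0.553 CPM, SD, n = 2 each, log2 fold change 0.77), and scaled to the germline markers it was at 0.12 and not called (adjusted p 0.503).

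**Figure D4:**
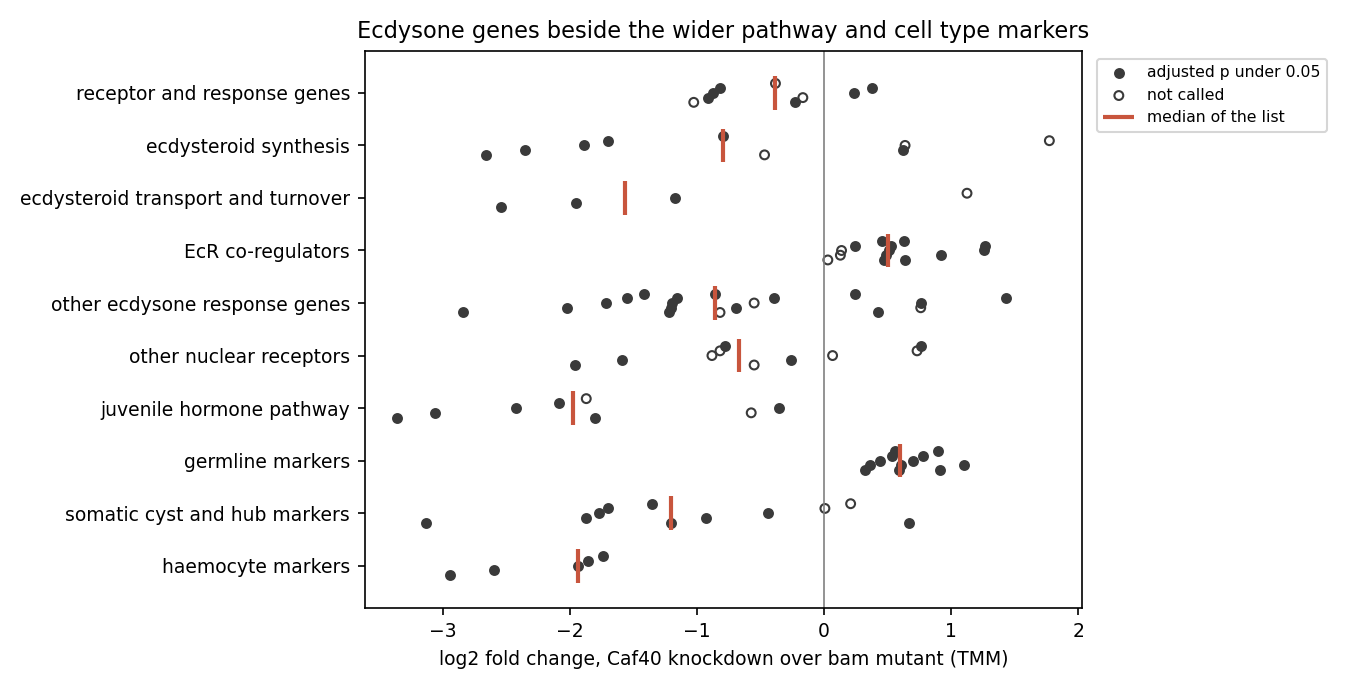
Log2 fold change of Caf40 knockdown over bam mutant for each tested gene in the ecdysone lists, the juvenile hormone list and 3 marker lists; filled points passed an adjusted p of 0.05, open points did not, and the red bar is the median of the list. The transport and response lists lie mostly below 0 (medians -1.56 and -0.85), as do the cyst and haemocyte markers (-1.20 and -1.94), while the co-regulators lie above 0 (0.50, or -0.15 when scaled to the germline markers) with the germline markers (0.60).

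Among markers of somatic cells, calls were mostly lower in the cyst and hub, haemocyte, muscle, and ejaculatory duct and bulb lists. The fat body and accessory gland lists had only higher calls. Of all genes tested, 63.7% were called, 30.7% higher and 33.0% lower. The share called was 81.8% for cyst and hub, 66.7% for muscle, close to the background, and 50% for fat body markers. It was 100% for the haemocyte, ejaculatory duct and bulb, and accessory gland lists. Of the 11 cyst and hub markers 8 were called lower and 1 higher, at a median of -1.20 on the log2 scale. Their summed level lay between 565 and 578 CPM in the bam mutant and between 329 and 367 CPM in the knockdown. The cyst cell transcription factor eya stood at 107.9 and 115.4 CPM in bam mutant libraries, compared with 32.4 and 28.6 CPM in the knockdown. The cyst marker zfh1 was not called (50.7 and 51.1 against 65.4 and 52.2 CPM, log2 fold change 0.21). The 1 higher marker was chinmo (0.66). Scaled to the germline markers, 9 of the 11 were lower and none higher. All 5 haemocyte markers were called lower, with a median of -1.94 and a summed level of 381 to 459 CPM against 82.8 to 113 CPM. Hml, their defining gene, fell from 144 and 114 CPM to 20.7 and 12.8 CPM. Of 9 muscle markers 5 were called lower and 1 higher (summed level 1114 to 1235 CPM against 767 to 863 CPM). Of the 6 ejaculatory duct and bulb markers 4 were called lower and 2 higher, with summed levels of 771 to 817 CPM against 172 to 197 CPM. Of the 4 fat body markers tested 2 were called higher and none lower, including the hormone-regulated Fbp1 (6.63 and 14.4 against 23.5 and 24.3 CPM), and the summed level was 75.7 to 86.8 CPM against 93.5 to 102 CPM. In RNA from whole organs, fewer cells of a type and less RNA per cell cannot be told apart. The part of these shifts in cell type markers in the lower levels of EcR, Eip74EF, Eip75B and the wider response genes was not tested.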

How the data were processed

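The authors trimmed reads with Trim Galore, aligned read pairs to the dm6 (BDGP6) genome with STAR and deposited raw counts per gene for each library, unstranded and for each strand; versions and the annotation release are not given in the sources used here. The strand read by the directional kit was used. The 4 STAR summary entries (26.9% to 30.8% of entries on that strand) were left out. A table of normalised counts (4 per-sample columns) and a table of the authors' DESeq2 comparison (mean, log2 fold change, its error, p-values) were not used. Symbols were found for 17253 of 17559 gene IDs, some through RefSeq synonyms. Coordinates and exonic lengths came from Ensembl release 115 (BDGP6). No sequences are shown.

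Counts were filtered with filterByExpr, scaled by TMM and tested with edgeR 4.0.16 (R 4.3.3) by its quasi-likelihood test (glmQLFit, glmQLFTest, two-sided, group only, all 4 libraries), with Benjamini-Hochberg adjustment over 10854 genes and a threshold of 0.05. Intervals used the t distribution of the fit (median prior df 3.36). The code was tested on simulated data. The genes named were all those of the rule and, in each wider list, up to 4 called genes with the largest change in each direction. The genes and lists were chosen with earlier results of these data known, and the 4 ratios after their values were seen, so no test was made over a list. Alternatives were DESeq2 1.42.0, other scalings (DESeq2 size factors in edgeR, upper quartile, library size alone, 12 germline markers), other filters (at least 1 count in all, at least 10 counts in every library), unstranded counts, bam mutant libraries thinned to 28698072 counts, the replicate number as a block, and each library left out.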

Additional observations from a re-analysis of the deposited data

How the results depend on the processing

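Depth was lower in the knockdown, which limits Hr3 and the scarce synthesis genes. Of the 9 genes, EcR and Eip75B kept direction and call under all 14 alternatives. The other calls moved as follows. The log2 fold change of usp was -0.085 with upper quartile scaling and -0.14 with library size alone, in both cases not called. With every gene of at least 1 count kept, Hr39 was at 0.084 and not called and tai at -0.31 and called, and with unstranded counts tai was at -0.19 and called. Scaled to the germline markers, ftz-f1 (-0.28) and Hr39 (-0.41) reversed, and tai (-0.81), Hr3 (-1.68) and Cyp18a1 (-1.03) became called. Among the genes of the wider lists, mld (-0.026), Hsp83 (-0.012), Dronc (-0.22) and crol (-0.40) reversed with that scaling, and sro (0.62) reversed with unstranded counts. The cause was not tested in any of these. Leaving out 1 library gave values from -0.34 to -0.19 for usp, -0.31 to -0.17 for tai, -1.14 to -0.75 for Eip74EF, 0.26 to 0.44 for ftz-f1, -1.49 to -0.69 for Hr3, 0.14 to 0.22 for Hr39 and -0.55 to -0.28 for Cyp18a1, 4 to 8 called genes among the 9, and 3 to 6 called synthesis genes. Those fits leave 1 library in a genotype. Over all genes, fewer were also called without either bam mutant library, and more without either knockdown library. The changes in the number called were thus not specific to the 9 genes or the synthesis list. Hr3 could not be tested with at least 10 counts in every library, with the thinned libraries or without bam mutant replicate 2.

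Nothing in the labels says that a replicate number marks a shared batch. Same-numbered libraries deviated from their group means with a correlation of 0.26 across genes, from 2 pairs only. With the replicate number as a block tai was at -0.17 and called, the other 8 genes kept their calls, dib (-1.90) and ImpE1 (1.41) of the wider lists lost theirs, and 6792 genes were called in all, against 6912. Over the alternatives that kept all libraries the number of all genes called ran from 6634 with DESeq2 to 7771 under germline scaling.

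Per kilobase of mean transcript length, bam mutant levels were 5.64 CPM for EcR, 21.1 for usp, 8.06 for tai, 1.79 for Eip74EF, 14.8 for Eip75B, 11.9 for ftz-f1, 0.0595 for Hr3, 19.02 for Hr39 and 2.18 for Cyp18a1.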

Other observations

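Juvenile hormone is the other lipid hormone of insects, and its pathway was measured beside that of ecdysone. Of 8 genes tested, 6 were called lower in the Caf40 knockdown and none higher in edgeR's quasi-likelihood test, with a median log2 fold change of -1.98. That is 75% called, against 63.7% of all genes tested (30.7% higher, 33.0% lower). The epoxide hydrolase genes, whose products break the hormone down, had the largest decreases. Jheh1 went from 425 and 425 CPM to 43.9 and 39.1 CPM (10.2-fold lower), Jheh2 from 879 and 884 CPM to 179 and 151 CPM (5.35-fold lower) and Jheh3 from 33.1 and 33.0 CPM to 3.99 and 3.93 CPM (8.34-fold lower). Kr-h1, the transcription factor gene induced by the hormone, was at 12.2 and 12.7 CPM and at 3.56 and 2.31 CPM, 4.24-fold lower. The other called genes were gce and Met, which encode the receptors of juvenile hormone and were singled out after their values were seen. Their log2 fold changes were -1.80 and -0.36, and Met was not called under upper quartile scaling or without either bam mutant library. All 8 values were also below 0 under upper quartile scaling and under scaling to the germline markers.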
